A study of Homo sapiens with 15 samples.

Results

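The genes described here are 40 human genes of glucose breakdown and of the hypoxia response. The rule lists them by name and uses no measured value, though they were picked with earlier results of these data known. They comprise 2 glucose transporters, 11 genes of upper glycolysis, 6 genes of lower glycolysis, 6 genes of lactate and pyruvate handling, 6 genes of the hypoxia-inducible factor (HIF) machinery and 9 genes that respond to low oxygen. All 40 were found once among the 31352 gene identifiers in the deposited file, and all 40 were among the 15122 genes tested. Of these 40, 38 reached the read minimum of the filter in all 15 libraries, CA9 in 8 and ANKRD37 in 10.

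Polyadenylated RNA was sequenced in 15 libraries, 3 in each of 5 groups. The EV group carried an empty vector and is named as the isogenic control. In the NICD1, NICD2, NICD3 and NICD4 groups, doxycycline switched on the intracellular domain of 1 of the receptors NOTCH1 to NOTCH4, the fragment that a cut receptor releases to act in the nucleus. How much doxycycline was given, for how long, and whether also to EV cells is not in the labels. Nor do they tell whether the 3 replicates were separate cultures, so p-values measure only the spread between these libraries, which may be technical.

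The cell line is given as HCT116, a colorectal carcinoma line, in the labels and as U373, a glioma line, in the descriptions. EPCAM, an epithelial surface gene, stood at 152 CPM (reads per 1000000 counted reads, scaled) in EV. The glial genes SOX2, OLIG2 and AQP4 had 4, 1 and 1 reads in all 15 libraries, none in an NICD library. Other genes of the glioma and astrocyte list had more. NES averaged 22 to 36.2 CPM over the 5 groups and GFAP 0.981 to 4.38 CPM. VIM averaged 21.7 CPM in EV and 0.625 to 2.19 CPM in the NICD groups. Members of the colorectal epithelial list also differed in level. CDX2 averaged 17.7 CPM in EV and 37.7 to 60.7 CPM in the NICD groups, and CDH1 3.76 CPM and 12.5 to 15.2 CPM. KRT20 averaged 0.328 to 1.46 CPM and VIL1 0.227 to 1.44 CPM over the 5 groups. CDH17 and LGALS4, of the intestinal epithelium, were at 0.286 CPM or less in every group mean. The summed level of 10 colorectal epithelial genes was 2090 to 2670 CPM in EV and 9520 to 23200 CPM in the NICD libraries, mostly KRT8, KRT18 and KRT19, and that of 8 glioma and astrocyte genes was 51.5 to 54.6 CPM in EV and 22.4 to 53.1 CPM in the NICD libraries. Their part in the changes below was not tested. One library, NICD4 replicate 1, carries NICD3 in other label fields. It was kept in NICD4 by its title, and its description and column name also say NICD4. Libraries held 11630195 to 27704492 counted reads.

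Glycolysis splits glucose into pyruvate in the cytosol. Glucose enters through transporters of the GLUT family, is trapped by hexokinases, and is committed to breakdown by phosphofructokinase. Pyruvate is either reduced to lactate and exported or oxidised in mitochondria, a choice that pyruvate dehydrogenase kinases limit. When oxygen is scarce, HIF1A or EPAS1 pairs with ARNT and raises many of these genes. With oxygen present, the EGLN hydroxylases mark the HIF alpha subunits and VHL directs their destruction, so that control lies largely in the protein, which RNA does not show. Tumour cells often run glycolysis with oxygen present.

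Levels are given as CPM scaled with TMM factors (trimmed mean of M values, which set most genes equal between libraries). Changes are log2 differences of group means ± SE from limma, and a gene is called when its p, adjusted by Benjamini and Hochberg over the 15122 genes, is under 0.05. Technical measures moved with the groups. TMM factors were 1.21 to 1.324 in the EV libraries and 0.7929 to 1.088 in the NICD libraries. Counted reads were 18246214 to 24484366 in EV and 11630195 to 16422913 in NICD4, and the other groups overlapped EV. The balance of GC-rich and GC-poor transcripts moved as well. Relative to the mean over libraries, the median of genes in the GC-richest decile of transcripts minus that in the GC-poorest decile was -1.22 to -0.898 (log2) in the EV libraries. The same difference was -0.58 to -0.179 in NICD2, -0.0627 to 0.33 in NICD3, 0.182 to 0.689 in NICD1 and 0.557 to 1.39 in NICD4. A difference in how the libraries recovered GC-rich transcripts and a change of GC-rich genes in the cells cannot be told apart in this design. Each change was therefore recomputed after removing the trend on GC content from every library, and this GC-adjusted change is printed beside many of the results it moves. For the 40 genes it kept 95 of the 122 calls against EV and made calls of 18 of the 38 changes that had none. How many calls it kept or made over all tested genes is not given here. Transcript GC content of the 40 genes ran from 36.4% for HIF1A to 64.1% for PFKL, with a median of 52.4% against 49% over all tested genes.

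The 40 genes did not move as a block in any group. In NICD1, 14 rose and 15 fell, beside 35.6% of all tested genes called up and 39.8% called down. In NICD2, 17 rose and 14 fell (29.6% and 29.9% of all tested genes). In NICD3, 13 rose and 15 fell (33% and 36.2%), and in NICD4, 15 rose and 19 fell (37.4% and 43.6%). The median change of the 40 genes was -0.08, 0.03, -0.00 and -0.14 in NICD1 to NICD4, beside -0.08, -0.03, -0.07 and -0.12 over all tested genes. The share called against EV thus lay near that among all genes, with the widest gap for rises in NICD2 (42.5% of the 40). After GC adjustment 10, 13, 12 and 13 of the 40 rose and 19, 13, 15 and 20 fell in NICD1 to NICD4. Of the 15122 tested genes, 5232, 4522, 4938 and 5567 were then called up and 5437, 4464, 5039 and 5716 down. GC-adjusted counts for subsets of the 40 below stand against these numbers. With library totals as the only scaling, the median of all genes against EV shifted to -0.534, -0.313, -0.479 and -0.656, and the split of the 40 genes became 8 up and 25 down in NICD1 (21.9% and 56.1% of all tested genes). It was 12 and 18 for NICD2 (18.8% and 44%), 11 and 23 for NICD3 (19.9% and 54.6%), and 6 and 23 for NICD4 (24.1% and 58.6%).

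Within that balance some genes kept 1 direction in all 4 groups. Called up in all 4 NICD groups were 10 genes: GPI, PFKL, ALDOA, TPI1, GAPDH, ENO1, PKM, SLC16A3, PDK3 and EGLN3 (25%, beside 23.2% of all tested genes). Called down in all 4 were 11 genes: SLC2A3, PFKM, PFKFB3, SLC16A1, PDK1, HIF1A, EGLN1, VHL, CA12, BNIP3 and BNIP3L (27.5%, beside 23.3%). The 4 comparisons share the EV libraries. After GC adjustment, 7 were called up in all 4 (GPI, ALDOA, TPI1, ENO1, PKM, PDK3 and EGLN3, beside 21.8%) and 10 down (PFKM, PFKFB3, PFKFB4, SLC16A1, HIF1A, VHL, CA9, CA12, ADM and BNIP3, beside 21.2%).

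**Figure D1:**
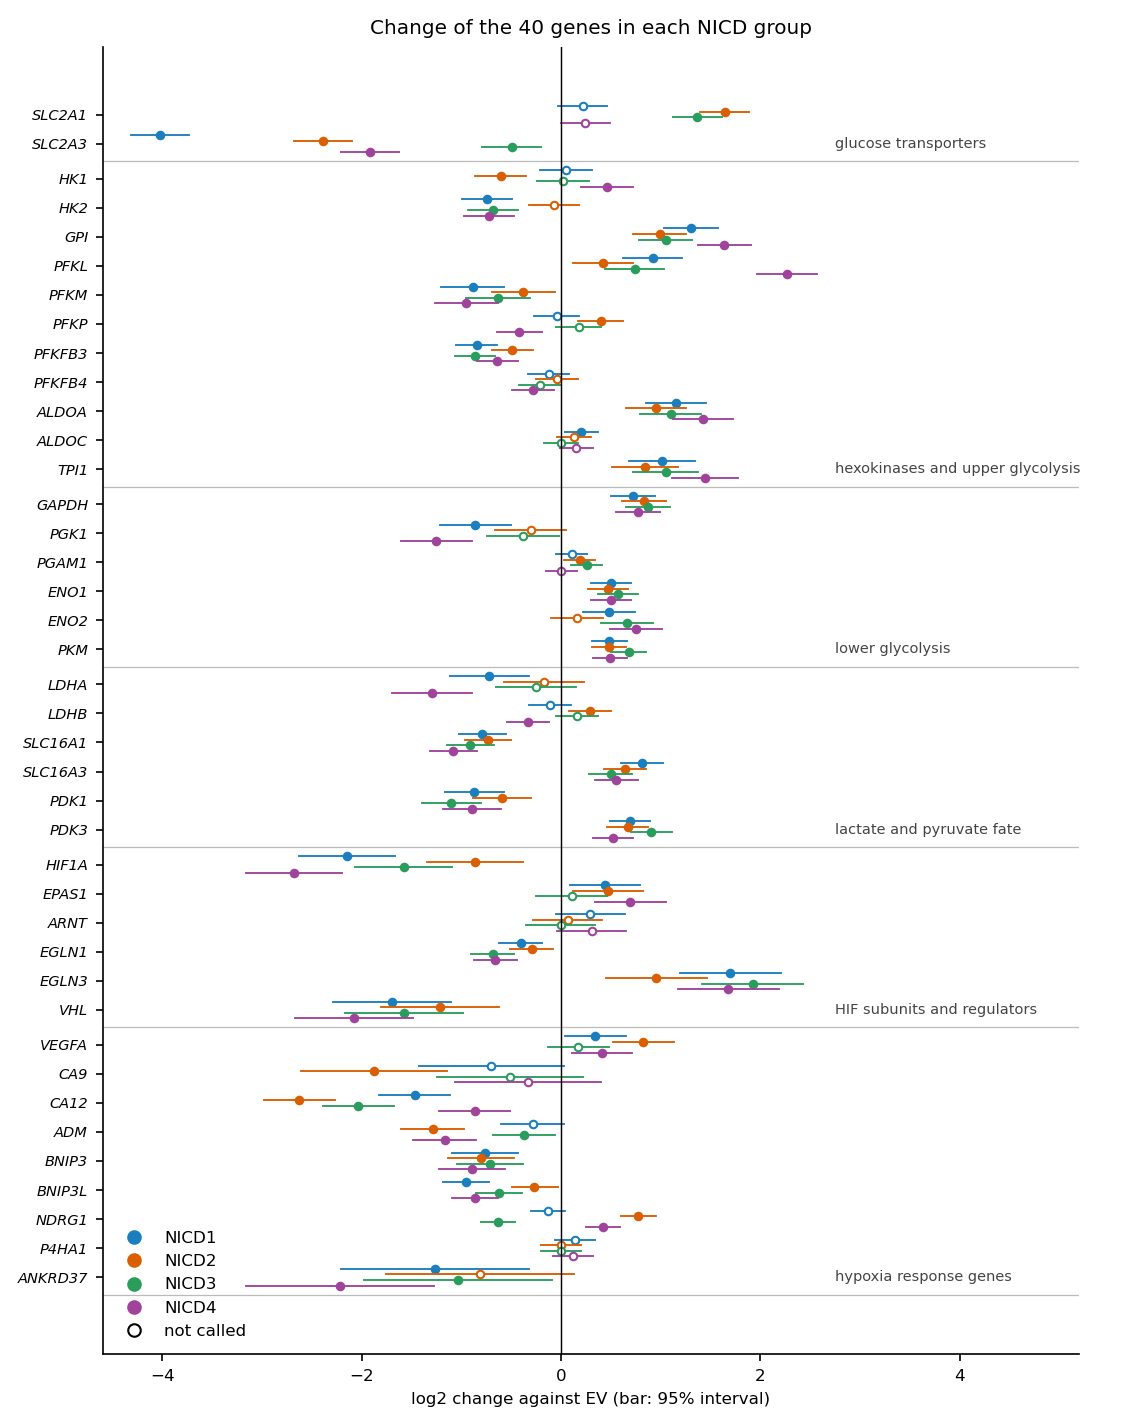
Log2 change against EV (horizontal axis) of each of the 40 genes, ordered by role, in NICD1, NICD2, NICD3 and NICD4, from 3 libraries per group. Bars are 95% intervals, filled points are called and open points are not called. SLC2A3 reaches -4.02 in NICD1, and called rises and falls stand side by side within upper glycolysis, lactate and pyruvate handling and the HIF genes in all 4 groups.

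Reads of the 40 genes made up 2.05% ± 0.0406 (SD, n = 3) of the counted reads in EV, and 2.21% ± 0.0371, 2.58% ± 0.105, 2.45% ± 0.0731 and 2.25% ± 0.0183 in NICD1 to NICD4. GAPDH alone held 0.628% of reads in EV and 0.736% to 0.92% in the NICD group means. Without GAPDH, 16 glycolytic enzymes and lactate dehydrogenases held 1.32% in EV and 1.39% to 1.55% in the NICD groups. Per kilobase of exon, the EV levels ran from GAPDH (2236 CPM per kilobase), ENO1 (990) and LDHB (901) at the top to CA9 (0.561) and EGLN3 (0.167) at the bottom, so most enzymes of the pathway were more abundant than the HIF genes and the hypoxia response genes.

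HIF binds DNA at a short core, read as ACGTG or GCGTG, in the promoters of many glycolytic genes. RefSeq promoter windows on GRCh38.p14 (300 bases around the start of the gene) were matched for 34 of the 40 genes, and those of SLC2A3, SLC16A1, VHL, VEGFA, NDRG1 and BNIP3L were not. Either core, on either strand, occurred in 25 of 34 windows (73.5%), against 48.4% of the 27305 promoters in the table. ACGTG was in 14 (41.2%, against 21.6%) and GCGTG in 17 (50%, against 36.3%). GTGGGAA, the core read by the NOTCH partner RBPJ, was in 1 (2.94%, against 6.28%), that of BNIP3. Both strands were searched, and a CACGTG counts as 2 matches of ACGTG because it reads the same on both. A match describes letters only. Both cores hold the letters CG, and the promoters compared were not matched for GC content. The windows of the 34 genes ran from 36.3% GC (PDK1) to 80.7% (BNIP3). The 40 genes were also chosen as genes of glycolysis and of the hypoxia response, many of which HIF raises. The parts of that choice and of base composition in the higher shares were not tested.

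Promoters of 6 genes are printed, because these genes carry a core and stand for the patterns below: LDHA and PGK1 fell in NICD1 and NICD4, ENO1 and ALDOA rose in all 4 groups, SLC2A1 rose in NICD2 and NICD3, and CA12 fell in all 4. Capitals mark ACGTG or GCGTG, or CACGT or CACGC where the core lies on the other strand. They lie at chr11:18394313-18394612, plus strand (LDHA, 6 matches), chrX:78103998-78104297, plus strand (PGK1, 4 matches), chr1:8878637-8878936, minus strand (ENO1, 2 matches), chr16:30064029-30064328, plus strand (ALDOA, 1 match), chr1:42958819-42959118, minus strand (SLC2A1, 1 match) and chr15:63381797-63382096, minus strand (CA12, 2 matches). Each is written in the direction of its gene.
LDHA: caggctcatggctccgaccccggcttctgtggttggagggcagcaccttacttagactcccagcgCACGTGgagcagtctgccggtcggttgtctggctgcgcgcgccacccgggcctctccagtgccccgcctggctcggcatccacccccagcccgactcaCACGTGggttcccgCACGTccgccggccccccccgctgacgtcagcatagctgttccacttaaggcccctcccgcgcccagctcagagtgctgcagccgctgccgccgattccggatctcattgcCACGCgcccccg
PGK1: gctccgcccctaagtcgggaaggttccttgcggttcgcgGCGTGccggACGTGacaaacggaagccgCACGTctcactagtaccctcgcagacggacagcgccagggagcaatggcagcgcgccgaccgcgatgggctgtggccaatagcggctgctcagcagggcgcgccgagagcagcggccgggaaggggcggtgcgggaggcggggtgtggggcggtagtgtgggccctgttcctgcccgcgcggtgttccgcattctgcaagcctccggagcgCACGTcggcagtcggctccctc
ENO1: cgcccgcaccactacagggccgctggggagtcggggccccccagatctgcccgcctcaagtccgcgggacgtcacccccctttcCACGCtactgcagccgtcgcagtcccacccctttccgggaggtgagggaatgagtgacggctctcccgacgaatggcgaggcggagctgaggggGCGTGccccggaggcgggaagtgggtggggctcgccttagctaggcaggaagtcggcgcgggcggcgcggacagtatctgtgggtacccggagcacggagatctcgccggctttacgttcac
ALDOA: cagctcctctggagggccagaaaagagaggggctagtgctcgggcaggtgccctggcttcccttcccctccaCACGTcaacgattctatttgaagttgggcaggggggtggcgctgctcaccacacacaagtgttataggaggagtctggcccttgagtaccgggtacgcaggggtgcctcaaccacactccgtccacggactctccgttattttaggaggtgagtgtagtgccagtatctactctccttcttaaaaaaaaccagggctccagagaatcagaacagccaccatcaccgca
SLC2A1: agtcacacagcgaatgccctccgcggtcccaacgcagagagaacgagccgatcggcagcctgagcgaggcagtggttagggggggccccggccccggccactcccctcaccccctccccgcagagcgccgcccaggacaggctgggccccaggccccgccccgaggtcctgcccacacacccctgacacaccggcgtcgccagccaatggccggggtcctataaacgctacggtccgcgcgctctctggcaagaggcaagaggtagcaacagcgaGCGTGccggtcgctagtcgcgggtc
CA12: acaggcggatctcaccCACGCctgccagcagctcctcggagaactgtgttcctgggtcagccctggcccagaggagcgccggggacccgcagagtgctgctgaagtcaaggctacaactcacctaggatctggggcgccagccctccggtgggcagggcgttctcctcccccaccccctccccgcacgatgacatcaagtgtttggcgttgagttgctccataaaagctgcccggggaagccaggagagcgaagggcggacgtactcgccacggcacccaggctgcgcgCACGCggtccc
Among these 6 genes, picked to stand for the patterns below, LDHA and PGK1 fell in NICD1 and NICD4, CA12 fell, and ENO1 and ALDOA rose. That both directions occur follows from the choice of genes. Direction was not set against matches over all the matched windows.

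Both glucose transporters differed between the receptors. SLC2A1 (ENSG00000117394, GRCh37 chromosome 1, 43391519 to 43424539), which encodes the widely used transporter GLUT1, stood at 124, 143 and 128 CPM in the 3 EV libraries. It reached 383, 458 and 392 CPM in NICD2 and 339, 333 and 346 CPM in NICD3, against 155, 136 and 169 CPM in NICD1 and 133, 183 and 156 CPM in NICD4. The NICD2 and NICD3 libraries lay above every other library, and those of NICD1 and NICD4 overlapped EV. SLC2A1 rose by 1.64 ± 0.12 in NICD2 (limma, adjusted p = 3.13e-08) and by 1.37 ± 0.12 in NICD3 (adjusted p = 1.81e-07). Its change was 0.22 in NICD1 (95% interval -0.0325 to 0.464) and 0.25 in NICD4 (-0.00308 to 0.494), neither called. After GC adjustment these 2 changes were -0.07 and -0.13, also not called. The receptors differed when set against each other. NICD2 exceeded NICD1 by 1.43 ± 0.12 (adjusted p = 9.54e-07) and NICD3 exceeded NICD1 by 1.15 ± 0.12 (adjusted p = 1.63e-05). NICD4 lay below NICD2 and NICD3 by -1.40 and -1.12, whereas NICD3 against NICD2 (-0.27, adjusted p = 0.127) was not called.

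SLC2A3 (ENSG00000059804, chromosome 12, 8071826 to 8088871) encodes the high-affinity transporter GLUT3, abundant in neurons and in some tumours. It stood at 26.3, 29.03 and 26.1 CPM in EV, and at 1.92, 1.43 and 1.53 CPM in NICD1, 4.81, 5.04 and 5.57 CPM in NICD2, 18.3, 19.8 and 19.6 CPM in NICD3 and 7.86, 5.80 and 7.97 CPM in NICD4. No NICD library overlapped EV, and no NICD group overlapped another. SLC2A3 fell by 4.02 ± 0.14 on the log2 scale in NICD1 (adjusted p = 1.68e-11), by 2.39 in NICD2 and by 1.92 in NICD4. The fall of 0.50 in NICD3 (adjusted p = 0.00525) was not called after GC adjustment (-0.33). All 6 comparisons between NICD groups were called, the widest being NICD3 above NICD1 by 3.53 ± 0.14 (adjusted p = 7.94e-10). In length-adjusted CPM, here and below without GC adjustment, SLC2A3 was 17.4% ± 0.335 of the summed level of the 2 transporters in EV. In the NICD groups it was 1.08% to 5.46%. The gene overlaps NECAP1 in the deposited annotation, which had 7449 reads to its 4110, and no strand setting is given, so reads in the shared stretch are uncertain.

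**Figure D2:**
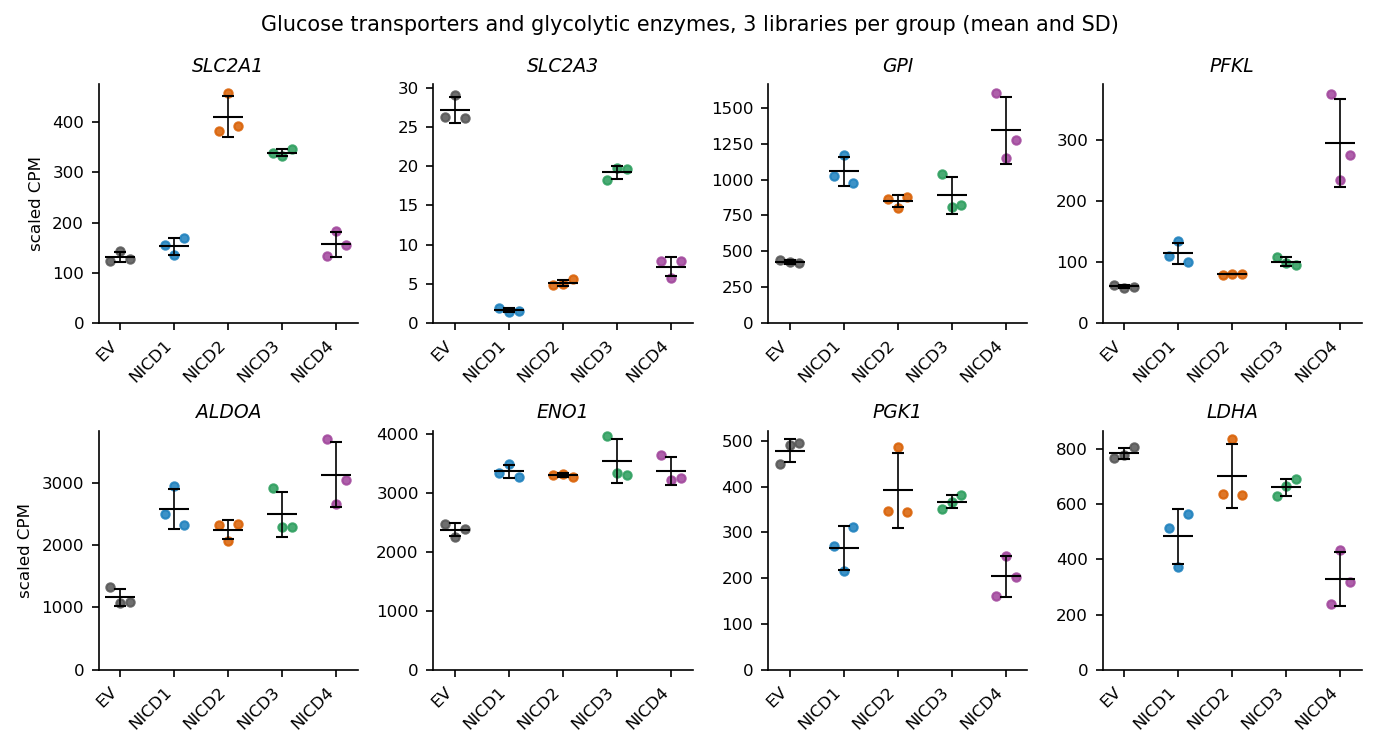
Scaled CPM (vertical axis, from 0) of 8 genes of glucose uptake, glycolysis and lactate formation in the 5 groups. Points are single libraries, and the bars give the mean and SD of 3. SLC2A1 stands high only in NICD2 and NICD3 among these groups, SLC2A3 is highest in EV, and PGK1 and LDHA are lowest in NICD4.

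Among the 11 genes of upper glycolysis, 5 rose and 3 fell in NICD1 (35.6% and 39.8% of all tested genes) and in NICD2 (29.6% and 29.9%). In NICD3, 4 rose and 3 fell (33% and 36.2%), and in NICD4, 5 rose and 5 fell (37.4% and 43.6%). After GC adjustment 3, 3, 3 and 4 rose and 6, 4, 5 and 6 fell in NICD1 to NICD4, so which direction held more of these genes depended on that step. GPI (ENSG00000105220), which turns glucose 6-phosphate into fructose 6-phosphate, stood at 442, 424 and 417 CPM in EV. It was at 1025, 1172 and 975 CPM in NICD1, 866, 803 and 879 CPM in NICD2, 1039, 809 and 826 CPM in NICD3, and 1602, 1150 and 1278 CPM in NICD4. Every NICD library lay above EV. The rise was 1.30, 0.99, 1.05 and 1.64 ± 0.13 in NICD1 to NICD4 (limma, largest adjusted p = 1.29e-05), and it was larger in NICD4 than in NICD2 by 0.65 (adjusted p = 0.000542) and than in NICD3 by 0.59 (adjusted p = 0.00211).

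ALDOA and TPI1, the aldolase and the triose phosphate isomerase that complete the splitting of the sugar, followed GPI. ALDOA (ENSG00000149925) went from 1319, 1068 and 1091 CPM in EV to group means of 2582, 2240, 2490 and 3128 CPM in NICD1 to NICD4, rises of 1.16, 0.95, 1.10 and 1.43 (largest adjusted p = 5.62e-05). TPI1 (ENSG00000111669) went from 1771, 1385 and 1543 CPM to means of 3162, 2796, 3238 and 4325 CPM, rises of 1.01, 0.84, 1.05 and 1.45 (largest adjusted p = 0.000347). All 3 genes stayed called up in every NICD group after GC adjustment, TPI1 with smaller changes (0.59 to 0.87). ALDOC, the aldolase best known from brain, was at 65.1 CPM in EV and 65.2 to 75.02 CPM in the NICD means. Its call up in NICD1 (0.20, adjusted p = 0.0286) turned to -0.19 after GC adjustment and to -0.25 with library totals. In NICD3 and NICD4 ALDOC was called down only after GC adjustment (-0.33 and -0.38). Its unadjusted call up in NICD1 was also lost without EV replicate 2 or 3 or NICD1 replicate 1 or 2 (adjusted p up to 0.142).

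In NICD2 the hexokinase gene HK1 fell and HK2 did not, whereas in the other NICD groups HK2 fell and HK1 did not. HK2 (ENSG00000159399), the hexokinase that tumours often induce, stood at 40.9, 44.2 and 47.5 CPM in EV. It was at 27.2, 21.97 and 30.4 CPM in NICD1, 26.5, 26.9 and 29.03 CPM in NICD3 and 23.6, 28.95 and 27.7 CPM in NICD4, all below EV. In NICD2 it was at 39.5, 46.4 and 40.4 CPM and overlapped EV. HK2 fell by 0.75 ± 0.12 in NICD1, by 0.68 in NICD3 and by 0.73 in NICD4 (largest adjusted p = 0.000124), and NICD2 exceeded NICD1 by 0.67 (adjusted p = 0.000889), with NICD3 and NICD4 below NICD2 by -0.61 and -0.65. HK1 (ENSG00000156515), the housekeeping hexokinase, fell from 59.7 ± 1.24 to 39.2 ± 2.50 CPM in NICD2 (-0.61 ± 0.12, adjusted p = 0.000691). Its rise of 0.46 in NICD4 (adjusted p = 0.003) was not called after GC adjustment (0.23) and was -0.09 with library totals. In length-adjusted CPM, HK2 was 45.7% ± 3.58 of the pair in NICD2, 36.8% ± 2.11 in EV and 20.6% to 26.3% in the other groups.

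Phosphofructokinase, the committing step, is built from 3 subunits named for liver, muscle and platelets, and their genes moved apart. PFKL (ENSG00000141959, chromosome 21, 45719934 to 45747259), the liver type, stood at 62.6, 57.7 and 59.7 CPM in EV. It was at 110.2, 134 and 99.25 CPM in NICD1, 79.5, 80.4 and 80.8 CPM in NICD2, 108.5, 98.1 and 94.5 CPM in NICD3 and 374, 234 and 275 CPM in NICD4. The NICD4 libraries lay above all others, with the widest spread. PFKL rose by 2.27 ± 0.14 in NICD4 (adjusted p = 5.44e-09), and by 1.17 there after GC adjustment, still called. Its rises of 0.92, 0.42 and 0.74 in NICD1, NICD2 and NICD3 became 0.11, 0.00 and 0.11 after GC adjustment and were no longer called, PFKL being the GC-richest of the 40 genes. The call in NICD2 was also lost with library totals (0.14) and without EV replicate 2 or 3 (adjusted p up to 0.0717). NICD4 exceeded NICD1 by 1.35, NICD2 by 1.85 and NICD3 by 1.53 (largest adjusted p = 1.39e-05), and these 3 differences were called after GC adjustment too, at 1.05, 1.16 and 1.05.

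PFKM (ENSG00000152556), the muscle type, fell in NICD1 (-0.89 ± 0.15, adjusted p = 8.81e-05), NICD3 (-0.63) and NICD4 (-0.95), where it averaged 63.8, 75.7 and 61.3 CPM against 118 ± 16.0 CPM in EV. In NICD2 its libraries (79.97, 107.5 and 85.3 CPM) overlapped EV (99.9, 130 and 124 CPM). The call there (-0.38, adjusted p = 0.0403) was lost without any 1 of 7 libraries: EV replicate 2 or 3, NICD2 replicate 1 or 3, NICD3 replicate 2 or 3, or NICD4 replicate 3 (adjusted p up to 0.158). PFKP, the platelet type, fell in NICD4 from 152.5 ± 4.78 to 114 ± 8.18 CPM (-0.42 ± 0.11, adjusted p = 0.00194), with a GC-adjusted change of -1.01. In NICD1 its change of -0.04 (adjusted p = 0.733) became -0.47 and called down after GC adjustment (adjusted p = 0.00593). Its rise in NICD2 (0.40, adjusted p = 0.00507) was not called after GC adjustment (0.17) or with library totals (0.11). In length-adjusted CPM, PFKL was 23.8% ± 2.05 of the 3 subunit genes in EV, and 42.3% ± 6.87, 27.4% ± 2.69, 35.6% ± 1.97 and 69.2% ± 7.03 in NICD1 to NICD4. PFKP led in EV with 47.3% ± 0.657 and stood at 21.6% ± 4.23 in NICD4. These shares are not GC-adjusted.

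PFKFB3 and PFKFB4 make and remove fructose 2,6-bisphosphate, the activator of phosphofructokinase. PFKFB3 (ENSG00000170525) stood at 35.7, 47.1 and 43.8 CPM in EV and between 21.4 and 31.4 CPM in all 12 NICD libraries, below EV throughout. It fell by 0.84, 0.49, 0.86 and 0.64 ± 0.10 in NICD1 to NICD4 (largest adjusted p = 0.000561), and the GC-adjusted change in NICD4 was -1.09. PFKFB4 was at 12.7 ± 0.359 CPM in EV and was called only in NICD4 (-0.28, adjusted p = 0.0171), a call lost without NICD4 replicate 3 (adjusted p = 0.0593). After GC adjustment PFKFB4 was called down in all 4 groups (-0.25 to -0.81).

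**Figure D3:**
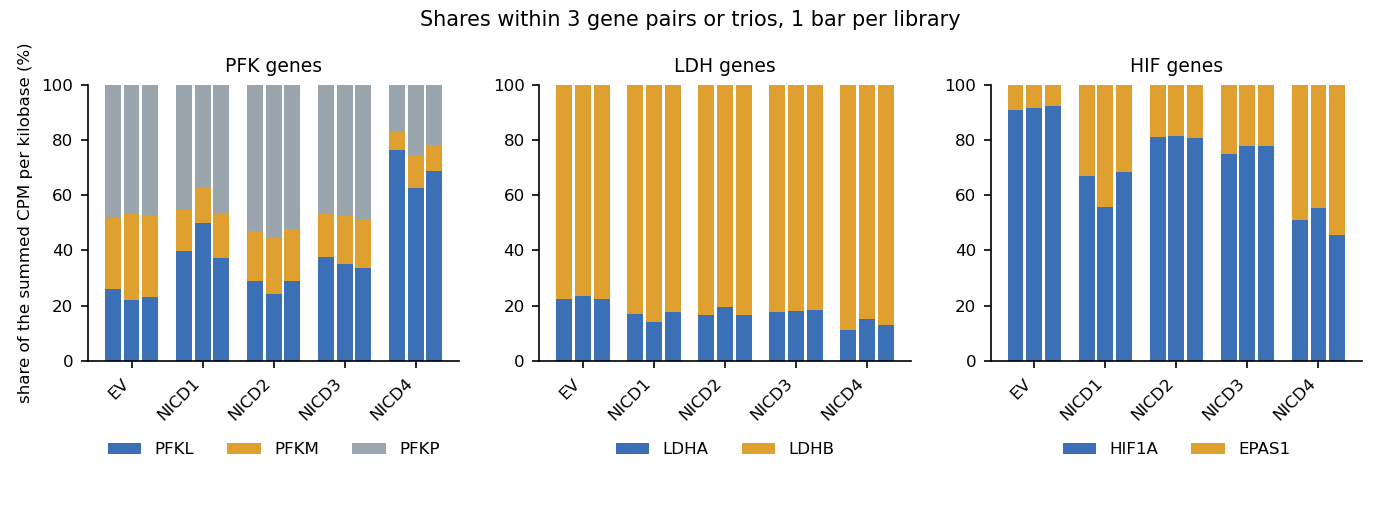
Share (%) of each gene in the summed CPM per kilobase of the phosphofructokinase subunits (left), the lactate dehydrogenases (middle) and the HIF alpha subunits (right). Each bar is 1 library, 3 per group. PFKL takes 62.4% to 76.4% in NICD4 and 22.2% to 26.1% in EV, and HIF1A goes from 90.6% to 92.3% in EV down to 45.5% to 55.4% in NICD4. The shares are not GC-adjusted.

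Lower glycolysis, which harvests ATP and NADH, had 6 genes. Of these, 4 rose and 1 fell in NICD1 (35.6% and 39.8% of all tested genes), and 4 rose in NICD2 (29.6%). In NICD3, 5 rose (33%), and in NICD4, 4 rose and 1 fell (37.4% and 43.6%). After GC adjustment 3, 3, 4 and 3 rose and 1, 0, 0 and 2 fell. GAPDH (ENSG00000111640), the NADH-forming dehydrogenase, stood at 5675, 4458 and 4787 CPM in EV and between 7950 and 10070 CPM in the NICD libraries, with no overlap. It rose by 0.72 ± 0.10, 0.84, 0.87 and 0.77 in NICD1 to NICD4 (largest adjusted p = 2.01e-05). After GC adjustment the change in NICD4 was 0.09 and not called, and those in NICD1, NICD2 and NICD3 were 0.22, 0.58 and 0.46 and called. GAPDH is often used to scale other genes and was not flat here. Its 42 pseudogene copies in the file held 0.838% as many reads as GAPDH.

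ENO1 (ENSG00000074800), the main enolase, stood at 2481, 2261 and 2396 CPM in EV and at means of 3367, 3303, 3537 and 3376 CPM in NICD1 to NICD4. It rose by 0.50, 0.47, 0.57 and 0.50 ± 0.09 (largest adjusted p = 0.000592), though with library totals the change was 0.04 in NICD1 and -0.04 in NICD4, neither called. Its GC-adjusted rises ran from 0.30 to 0.41. PKM (ENSG00000067225), the pyruvate kinase of most tissues and tumours, stood at 1419, 1354 and 1383 CPM in EV and at means of 1940, 1935, 2220 and 1950 CPM. It rose by 0.49, 0.48, 0.68 and 0.49 ± 0.08 (largest adjusted p = 0.000148), and with library totals it was 0.03 in NICD1 and -0.05 in NICD4, neither called. Its GC-adjusted rises ran from 0.24 to 0.50. For both genes all NICD libraries lay above EV, and the F-test across the 4 receptors called no difference (adjusted p = 0.801 for ENO1 and 0.099 for PKM), though after GC adjustment it did for PKM (limma, adjusted p = 0.0224). ENO2, the neuronal enolase, rose in NICD3 (0.66, adjusted p = 0.000232) and NICD4 (0.75, adjusted p = 4.16e-05) where it averaged 67.3 and 72.5 CPM against 42.6 CPM in EV. The GC-adjusted rises were 0.40 and 0.36, and with library totals NICD4 was not called (0.21). Its rise in NICD1 (0.48) was not called after GC adjustment (0.18) or with library totals (0.03). It overlaps LRRC23, with 7938 reads to its 16111.

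PGK1, the first ATP-forming enzyme, went the other way. PGK1 (ENSG00000102144, chromosome X, 77320685 to 77384793) stood at 448.7, 491 and 495 CPM in EV, 271, 215 and 311 CPM in NICD1 and 160, 248.5 and 203 CPM in NICD4, with no overlap. In NICD2 (346, 486.5 and 344 CPM) it overlapped EV, and in NICD3 (352, 367 and 382 CPM) it lay below without being called. PGK1 fell by 0.86 ± 0.17 in NICD1 (adjusted p = 0.0003) and by 1.25 ± 0.17 in NICD4 (adjusted p = 7.07e-06), and the changes of -0.31 in NICD2 (adjusted p = 0.128) and -0.38 in NICD3 (adjusted p = 0.0543) were not called. The GC-adjusted falls were -0.49 and -0.71, both called, and the changes in NICD2 and NICD3 were then -0.12 and -0.09. NICD4 lay below NICD2 by -0.95 (adjusted p = 0.000287, GC-adjusted -0.58) and below NICD3 by -0.87 (adjusted p = 0.00112). PGAM1, the mutase that follows, was called up in NICD3 (0.26 ± 0.07, adjusted p = 0.00581) and NICD2 (0.19, adjusted p = 0.0385), not after GC adjustment (0.10 and 0.08), and with library totals the 2 changes were -0.16 and -0.10. In NICD4 PGAM1 was called down only after GC adjustment (-0.21). The NICD2 call was lost without any EV replicate, NICD1 replicate 1 or NICD2 replicate 2 (adjusted p up to 0.171).

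Lactate dehydrogenase joins pyruvate and lactate, with LDHA favouring lactate and LDHB pyruvate. LDHA (ENSG00000134333, chromosome 11, 18415935 to 18429972) stood at 768.5, 780 and 808 CPM in EV. It was at 515.5, 373.2 and 566 CPM in NICD1, 637, 836 and 634.5 CPM in NICD2, 630, 665 and 692 CPM in NICD3 and 239.5, 434 and 318 CPM in NICD4. All NICD1 and NICD4 libraries lay below EV, as did those of NICD3, and NICD2 overlapped EV. LDHA fell by 0.72 ± 0.19 in NICD1 (adjusted p = 0.00301) and by 1.29 ± 0.19 in NICD4 (adjusted p = 1.63e-05), as PGK1 did, while the changes in NICD2 (-0.17, 95% interval -0.575 to 0.227) and NICD3 (-0.25, -0.648 to 0.154) were not called. The GC-adjusted falls were -0.39 in NICD1 and -0.79 in NICD4, both called, beside -0.02 in NICD2 and 0.01 in NICD3. NICD4 lay below NICD2 by -1.12 (adjusted p = 0.000206) and below NICD3 by -1.04 (adjusted p = 0.000789).

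LDHB (ENSG00000111716) was at 1429 ± 70.9 CPM in EV and 1137 ± 145 CPM in NICD4, where its fall of 0.34 (adjusted p = 0.00587) was not called after GC adjustment (-0.04). In NICD3 its change of 0.16 became a called 0.29 after that step. Its rise in NICD2 (0.29, adjusted p = 0.0191) was lost without EV replicate 1 or 2 or NICD2 replicate 2 (adjusted p up to 0.0861), and with library totals it was 0.01 and not called. In length-adjusted CPM, LDHA was 22.7% ± 0.597 of the pair in EV and 16.3% ± 1.85, 17.6% ± 1.72, 18.1% ± 0.375 and 13.2% ± 1.96 in NICD1 to NICD4, and no NICD library reached the lowest EV library (22.3%).

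The lactate carriers moved in opposite directions on the TMM scale. SLC16A1 (ENSG00000155380), which encodes MCT1, stood at 132, 145 and 145 CPM in EV and between 54.2 and 89.9 CPM in the 12 NICD libraries. It fell by 0.79, 0.73, 0.91 and 1.08 ± 0.11 in NICD1 to NICD4 (largest adjusted p = 5.87e-05), and each fall was called after GC adjustment (-0.43 to -0.63). SLC16A3 (ENSG00000141526), which encodes the exporter MCT4 of glycolytic cells, stood at 167, 139.5 and 146 CPM in EV and between 200.7 and 280 CPM in the NICD libraries. It rose by 0.81, 0.64, 0.50 and 0.55 ± 0.10 (largest adjusted p = 0.0005). SLC16A3 is GC-rich (62.6%), and after GC adjustment its change was 0.09 in NICD1, -0.07 in NICD3 and -0.44 in NICD4, the last called down, so that only the rise in NICD2 (0.27) was called. With library totals its changes in NICD3 (0.08) and NICD4 (0.01) were not called.

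The pyruvate dehydrogenase kinases, which hold pyruvate back from mitochondria, also parted. PDK1 (ENSG00000152256) stood at 9.51, 10.1 and 10.4 CPM in EV and between 4.49 and 7.06 CPM in the NICD libraries. It fell by 0.87, 0.59, 1.10 and 0.89 ± 0.14 in NICD1 to NICD4 (largest adjusted p = 0.00201), with GC-adjusted changes of -0.29, -0.29, -0.62 and -0.11, the last not called. PDK3 (ENSG00000067992) stood at 6.57, 6.08 and 6.01 CPM in EV and between 8.41 and 12.2 CPM in the NICD libraries. It rose by 0.69, 0.67, 0.91 and 0.52 ± 0.09 (largest adjusted p = 0.000137), with GC-adjusted rises of 0.84 to 1.20, and with library totals it was -0.02 in NICD4 and not called. For both genes no NICD library overlapped EV.

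Of the 6 HIF genes, 3 fell in every NICD group (HIF1A, EGLN1 and VHL) and EGLN3 rose in every one. Of all tested genes, 23.3% were called down and 23.2% up in every NICD group. HIF1A (ENSG00000100644, chromosome 14, 62162231 to 62214976), the main oxygen-regulated alpha subunit, stood at 35.15, 48.8 and 44.5 CPM in EV. It was at 9.21, 7.03 and 13.4 CPM in NICD1, 22.4, 27.4 and 20.5 CPM in NICD2, 11.65, 14.7 and 16.6 CPM in NICD3 and 5.33, 8.61 and 6.22 CPM in NICD4. Every NICD library lay below EV, and NICD2 lay above the other NICD groups. HIF1A fell by 2.15 ± 0.23 in NICD1 (adjusted p = 1.22e-06), 0.86 in NICD2 (adjusted p = 0.00442), 1.58 in NICD3 (adjusted p = 2.61e-05) and 2.68 in NICD4 (adjusted p = 1.04e-07). After GC adjustment the changes were smaller, at -1.46, -0.51, -1.01 and -1.76, and all 4 were called. In these bulk samples fewer cells that express a gene and less of its RNA per cell cannot be told apart. NICD2 exceeded NICD1 by 1.28 ± 0.23 (adjusted p = 0.00101), and NICD4 lay below NICD2 by -1.81 (adjusted p = 2.61e-05) and below NICD3 by -1.10 (adjusted p = 0.0017).

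EPAS1 (ENSG00000116016), which encodes HIF2 alpha, went from 4.44, 5.49 and 4.52 CPM in EV to 6.24, 8.41 and 9.04 CPM in NICD4, a rise of 0.70 ± 0.17 (adjusted p = 0.0013) that was 0.16 and not called with library totals. Its calls in NICD1 (0.44, adjusted p = 0.0256) and NICD2 (0.47, adjusted p = 0.0245) were lost after GC adjustment (0.28 and 0.36) and with library totals (-0.01 and 0.19). They were also lost without EV replicate 1 or 3, NICD1 replicate 2 or 3 for NICD1, or NICD2 replicate 2 for NICD2 (adjusted p up to 0.104 and 0.0991). In length-adjusted CPM, EPAS1 was 8.54% ± 0.859 of the summed level of HIF1A and EPAS1 in EV, and 36.2% ± 6.93, 19.1% ± 0.289, 23.1% ± 1.64 and 49.4% ± 4.95 in NICD1 to NICD4. These shares set EPAS1 (52.6% GC) beside the GC-poor HIF1A (36.4%) and are not GC-adjusted. ARNT, the shared partner, was at 20.4 ± 1.20 CPM in EV and was called in no NICD group, with changes of -0.00 to 0.31, and after GC adjustment it was called up in NICD1 (0.43) and NICD4 (0.56).

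VHL (ENSG00000134086, chromosome 3, 10182692 to 10193904), the ubiquitin ligase subunit that removes HIF alpha, stood at 18.2, 35.9 and 30.8 CPM in EV, a wide spread. It was at 8.66, 5.87 and 11.4 CPM in NICD1, 9.55, 15.6 and 10.65 CPM in NICD2, 7.43, 10.7 and 9.47 CPM in NICD3 and 5.42, 6.13 and 7.97 CPM in NICD4. All lay below the lowest EV library. VHL fell by 1.70 ± 0.28, 1.22, 1.57 and 2.07 in NICD1 to NICD4 (largest adjusted p = 0.00172), and GC-adjusted falls ran from -1.18 to -1.85. The F-test across the receptors did not call a difference for VHL (adjusted p = 0.0735).

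The HIF hydroxylase genes went opposite ways. EGLN1 (ENSG00000135766), the main oxygen sensor, stood at 39.4, 38.3 and 41.1 CPM in EV and averaged 29.95, 32.3, 24.6 and 25.2 CPM in NICD1 to NICD4. It fell by 0.41, 0.29, 0.69 and 0.66 ± 0.10 (largest adjusted p = 0.0217). After GC adjustment it was called down only in NICD3 (-0.44) and NICD4 (-0.17), with -0.09 and -0.14 in NICD1 and NICD2. The call in NICD2 was lost without EV replicate 3 or NICD2 replicate 3 (adjusted p up to 0.0831). EGLN3 (ENSG00000129521), a hydroxylase gene that HIF itself induces, was scarce, with 18 to 84 reads per library. It stood at 1.13, 0.617 and 0.689 CPM in EV, 3.37, 2.46 and 2.29 CPM in NICD1, 1.94, 1.17 and 1.73 CPM in NICD2, 3.46, 2.85 and 3.09 CPM in NICD3 and 2.53, 2.74 and 2.62 CPM in NICD4. Every NICD library lay above EV, and EGLN3 rose by 1.70 ± 0.24, 0.96, 1.92 and 1.68 (largest adjusted p = 0.00316). The deposited annotation gives it a long locus (chromosome 14, 34393437 to 34931980) that overlaps SPTSSA, which had 10624 reads to its 582, so part of its reads is uncertain.

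**Figure D4:**
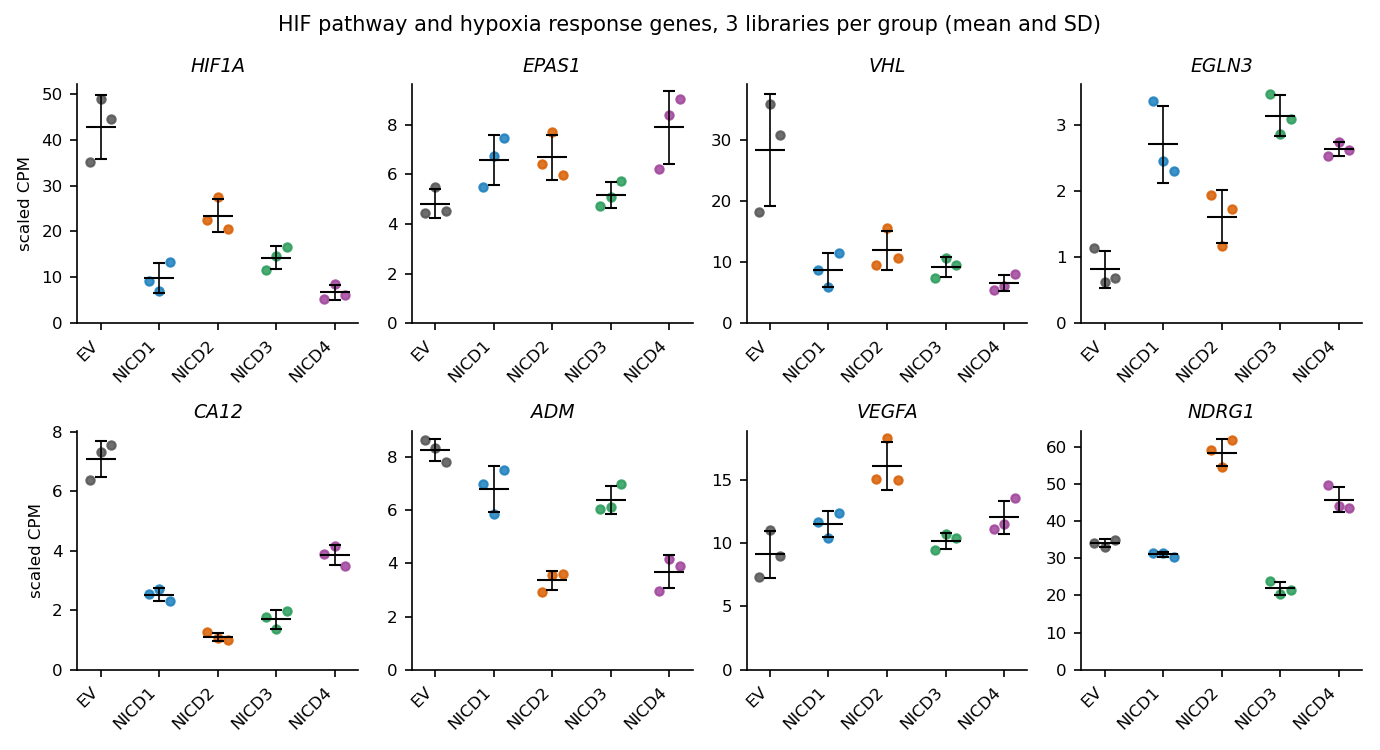
Scaled CPM (vertical axis, from 0) of 4 HIF pathway genes and 4 hypoxia response genes in the 5 groups. Points are single libraries, and the bars give the mean and SD of 3. HIF1A, VHL and CA12 are highest in EV, EGLN3 is lowest in EV, and NDRG1 is above EV in NICD2 and NICD4 and below it in NICD3.

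Of the 9 hypoxia response genes, 1 rose and 4 fell in NICD1 (35.6% and 39.8% of all tested genes). In NICD2, 2 rose and 5 fell (29.6% and 29.9%). In NICD3, 6 fell and none rose (36.2% and 33%), and in NICD4, 2 rose and 5 fell (37.4% and 43.6%). After GC adjustment 1, 2, 1 and 2 rose and 6, 4, 5 and 5 fell. Before adjustment their median change was -0.70, -0.80, -0.63 and -0.87, beside -0.08, -0.03, -0.07 and -0.12 over all tested genes. CA12 (ENSG00000074410, chromosome 15, 63613577 to 63674360), a surface carbonic anhydrase that buffers acid outside the cell, stood at 6.39, 7.31 and 7.54 CPM in EV. It was at 2.54, 2.73 and 2.29 CPM in NICD1, 1.27, 1.05 and 0.9865 CPM in NICD2, 1.76, 1.36 and 1.99 CPM in NICD3 and 3.89, 4.17 and 3.50 CPM in NICD4. No group overlapped another. CA12 fell by 1.47 ± 0.17, 2.63, 2.03 and 0.87 in NICD1 to NICD4 (largest adjusted p = 0.000215), with nearly the same GC-adjusted values (-0.87 to -2.67). NICD4 exceeded NICD2 by 1.76 (adjusted p = 2.59e-06) and NICD3 by 1.17 (adjusted p = 0.000179), and NICD2 lay below NICD1 by -1.16 (adjusted p = 0.000193).

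CA9 (ENSG00000107159), a related anhydrase widely used as a marker of hypoxia, had only 3 to 26 reads per library. It stood at 1.18, 0.740 and 0.804 CPM in EV and at 0.334, 0.161 and 0.148 CPM in NICD2, where it fell by 1.88 ± 0.34 (adjusted p = 0.000323). In NICD1, NICD3 and NICD4 the changes of -0.70, -0.52 and -0.33 were not called, and after GC adjustment all 4 were (-0.98 to -2.17). It overlaps ARHGEF39, which had 7242 reads to its 173, so its level is uncertain. ADM (ENSG00000148926), which encodes the vessel-relaxing peptide adrenomedullin, stood at 8.65, 8.36 and 7.81 CPM in EV, 2.94, 3.55 and 3.601 CPM in NICD2 and 2.98, 4.17 and 3.89 CPM in NICD4. It fell by 1.29 ± 0.15 in NICD2 (adjusted p = 4.55e-06) and by 1.17 in NICD4 (adjusted p = 3.97e-06). Its level in NICD1 was 6.80 ± 0.854 CPM (-0.29, not called) and in NICD3 6.39 ± 0.532 CPM. The call in NICD3 (-0.37, adjusted p = 0.0351) was lost without EV replicate 1 or 2 or NICD3 replicate 1 or 2 (adjusted p up to 0.0988), and NICD2 and NICD4 lay below NICD1 by -1.003 and -0.88 (adjusted p = 0.000235 and 0.00079). After GC adjustment ADM was called down in all 4 groups, by -0.77 in NICD1 and NICD3, -1.54 in NICD2 and -1.83 in NICD4.

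NDRG1 (ENSG00000104419), a stress-response gene strongly induced by hypoxia, was called in opposite directions in different NICD groups. It stood at 34.2, 32.9 and 35.0 CPM in EV, 31.5, 31.3 and 30.4 CPM in NICD1, 59.0, 54.4 and 61.8 CPM in NICD2, 23.9, 20.4 and 21.6 CPM in NICD3 and 49.6, 43.9 and 43.6 CPM in NICD4. The 5 groups did not overlap. NDRG1 rose by 0.78 ± 0.08 in NICD2 (adjusted p = 1.58e-06) and by 0.42 in NICD4 (adjusted p = 0.000198), and fell by 0.63 in NICD3 (adjusted p = 8.39e-06), while the change in NICD1 (-0.13, adjusted p = 0.15) was not called. After GC adjustment the NICD1 change was -0.26 and called down (adjusted p = 0.00356). The NICD4 change was 0.27 after that step, still called, and -0.12 with library totals. All 6 comparisons between NICD groups were called, the widest being NICD3 below NICD2 by -1.41 ± 0.08 (adjusted p = 4.8e-08). VEGFA (ENSG00000112715), the growth factor of blood vessels, rose in NICD2 from 7.34, 11.04 and 8.99 to 15.02, 18.3 and 14.95 CPM, by 0.83 ± 0.14 (adjusted p = 0.000195). Its calls in NICD1 (0.35, with libraries that overlapped EV) and NICD4 (0.41) were lost after GC adjustment (0.06 and 0.04), and with library totals they were -0.11 and -0.13. They were lost too without EV replicate 1 for either, EV replicate 3 or NICD1 replicate 1 or 3 for NICD1, or NICD4 replicate 3 for NICD4 (adjusted p up to 0.279 and 0.112).

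BNIP3 and BNIP3L, which mark mitochondria for removal, were lower. BNIP3 (ENSG00000176171) stood at 14.8, 18.5 and 18.6 CPM in EV and between 7.95 and 12.01 CPM in the NICD libraries, and fell by 0.77, 0.80, 0.71 and 0.90 ± 0.15 (largest adjusted p = 0.0009). Its 4 pseudogene copies in the file held 5008 reads to its 3549, so reads may be split between near-identical sequences and its level is uncertain. BNIP3L (ENSG00000104765) stood at 28.1 ± 1.66 CPM in EV and at 14.5, 23.3, 18.2 and 15.5 CPM in NICD1 to NICD4. It fell by 0.95, 0.27, 0.63 and 0.87 ± 0.11, but after GC adjustment only the fall in NICD1 (-0.33) was called, and the changes in NICD2, NICD3 and NICD4 were 0.05, -0.12 and -0.04. The NICD2 call (adjusted p = 0.0454) was lost without any 1 of 10 libraries: EV replicate 2 or 3, NICD1 replicate 1 or 3, NICD2 replicate 2 or 3, any NICD3 replicate, or NICD4 replicate 3 (adjusted p up to 0.153).

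P4HA1, a collagen prolyl hydroxylase subunit, was called in no group, at 25.5 ± 1.08 CPM in EV and 25.4 to 28.3 CPM in the NICD means, with 95% intervals of its change between -0.206 and 0.346. After GC adjustment this GC-poor gene (40.8%) was called up in NICD1 (0.68), NICD3 (0.43) and NICD4 (0.84). ANKRD37, a small HIF target, had 2 to 58 reads per library and stood at 1.54, 1.79 and 1.38 CPM in EV and 0.181, 0.652 and 0.194 CPM in NICD4, a fall of 2.22 ± 0.44 (adjusted p = 0.000293). Its calls in NICD1 (-1.27) and NICD3 (-1.04) were lost after GC adjustment (-0.81 and -0.67). The NICD1 call was lost without EV replicate 2 or NICD1 replicate 2 (adjusted p up to 0.0774), and the NICD3 call (adjusted p = 0.0481) without any of the EV or NICD2 replicates, NICD1 replicate 3, or NICD3 replicate 1 or 2 (adjusted p up to 0.22).

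**Figure D5:**
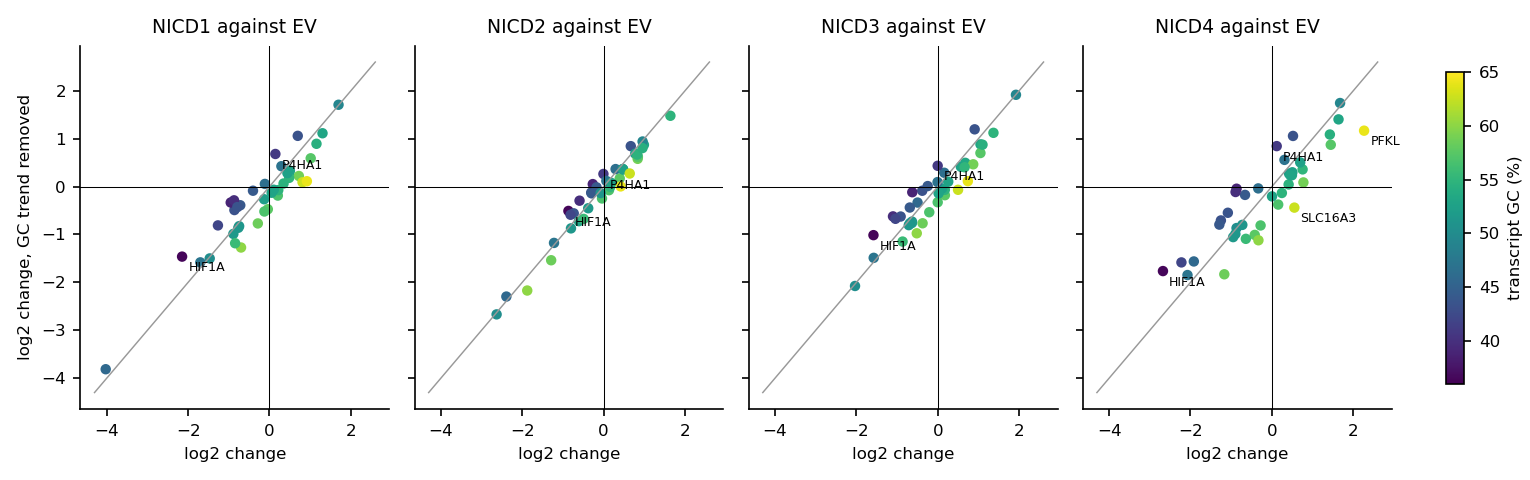
Log2 change against EV before (horizontal axis) and after (vertical axis) removal of the GC trend, for the 40 genes in each NICD group. Each point is 1 gene, coloured by its transcript GC content, and the diagonal marks equal values. In NICD4 the GC-rich PFKL and SLC16A3 drop from 2.27 to 1.17 and from 0.55 to -0.44, while the GC-poor P4HA1 and HIF1A move up, to 0.84 and -1.76.

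Differences among the 4 receptors were called by the F-test for 30 of the 40 genes, beside 67.9% of all tested genes. The other 10 were PFKFB4, ALDOC, GAPDH, ENO1, PKM, SLC16A3, ARNT, VHL, BNIP3 and P4HA1. After GC adjustment the F-test again called 30 genes, but not the same ones. The share of all tested genes called by the adjusted F-test is not given here, so this count has no background beside it. PFKFB4, ALDOC, GAPDH, PKM, SLC16A3 and P4HA1 were then called, and ALDOA, TPI1, SLC16A1, PDK3, EPAS1 and ANKRD37 no longer were. NICD2 exceeded NICD1 for 13 genes and lay below for 7 (18.6% of all tested genes in each direction). NICD3 exceeded NICD1 for 2, SLC2A1 and SLC2A3, and lay below for 1, NDRG1 (3.56% and 3.16%). NICD4 exceeded NICD1 for 5 and lay below for 3 (13.3% and 13.9%). NICD3 exceeded NICD2 for 7 and lay below for 8 (8.23% and 6.8%), NICD4 exceeded NICD2 for 10 and lay below for 17 (30% and 33.5%), and NICD4 exceeded NICD3 for 7 and lay below for 11 (23.4% and 25.6%). These counts rested on single libraries in part. Without NICD2 replicate 2, 24 of the 91 calls between receptors were lost. NICD2 then exceeded NICD1 for 8 genes and lay below for 4, and without NICD1 replicate 2 the counts were 8 and 3. NICD3 against NICD1 became 4 above and 3 below without NICD4 replicate 1. NICD4 against NICD1 fell to 3 above and 1 below without NICD1 replicate 1 or 3, to 3 above without NICD4 replicate 1 and to 1 below without NICD4 replicate 3, and grew to 8 above without NICD1 or NICD4 replicate 2, with 7 and 9 below. NICD3 against NICD2 fell to 3 above and 3 below without NICD2 replicate 2 or NICD3 replicate 1, to 3 below without NICD3 replicate 2, and to 5 below without NICD2 replicate 1 or NICD3 replicate 3.

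Other genes of the same pathways were read from lists, whose counts stand against the shares of all tested genes called up and down given for each group at the start. In the pentose phosphate pathway, which branches from glycolysis to make NADPH and ribose, 5 of 8 tested genes rose and 1 fell in NICD1, NICD2 and NICD3, and 5 rose and 2 fell in NICD4 (median change 0.61, 0.42, 0.39 and 0.60, or 0.36, 0.39, 0.36 and 0.23 after GC adjustment). PGLS, its lactonase, averaged 23.96 CPM in EV and 92.2, 55.97, 77.6 and 100.3 CPM in NICD1 to NICD4, rises of 1.96, 1.24, 1.71 and 2.08 that were 1.30, 0.90, 1.19 and 1.17 after GC adjustment. TALDO1, the transaldolase, rose by 1.21, 0.88, 1.06 and 1.37 (0.83, 0.68, 0.75 and 0.86 after GC adjustment). Among 6 other glucose uptake genes, 4 fell in every group and 2 rose in NICD1 and in NICD4. After GC adjustment 3, 5, 6 and 5 fell and none rose. The genes that fell included ARRDC4, an arrestin that restrains glucose uptake, which fell by 2.87, 1.79, 2.20 and 1.98, and SLC2A12, a further transporter of the family, by 1.01, 1.54, 1.38 and 1.23 (GC-adjusted -0.48, -1.28, -0.94 and -0.50).

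Among 14 other glycolysis and gluconeogenesis enzymes, 2 rose and 6 fell in NICD1 and NICD2, 2 rose and 8 fell in NICD3, and 3 rose and 8 fell in NICD4. TIGAR, which lowers fructose 2,6-bisphosphate, fell by 1.23, 0.86, 0.67 and 1.57, with GC-adjusted changes of -0.92, -0.71, -0.42 and -1.09. For entry of pyruvate into mitochondria, 7, 4, 7 and 10 of 13 genes fell in NICD1 to NICD4 and 2, 2, 1 and 1 rose. After GC adjustment the falls were 5, 3, 5 and 3 and the rises 4 in each. In the tricarboxylic acid cycle, 7, 8, 7 and 6 of 16 genes rose and 5, 1, 4 and 7 fell, with IDH3G, a subunit of isocitrate dehydrogenase, up by 0.90, 0.69, 0.96 and 1.20 (0.27, 0.37, 0.45 and 0.32 after GC adjustment). With GC adjustment 9, 7, 8 and 9 genes of the cycle rose and 4, 1, 3 and 4 fell.

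Of 10 other HIF regulators, 4 rose in NICD1 and 5 in each other group, and 3, 1, 4 and 4 fell. HIF1AN, the asparaginyl hydroxylase that blocks HIF activity, averaged 50.7 CPM in EV and 93.03, 87.7, 93.1 and 86.7 CPM in NICD1 to NICD4, rises of 0.87, 0.79, 0.88 and 0.77 ± 0.08. ARNT2, a relative of ARNT, fell by 1.18, 1.28, 0.90 and 1.12. Of 24 other hypoxia response genes, 9, 11, 10 and 9 rose and 10, 7, 12 and 12 fell, with a median of -0.20, 0.11, -0.26 and -0.31. After GC adjustment 9, 9, 10 and 7 rose and 8, 5, 8 and 10 fell, and the median was 0.09, 0.16, 0.05 and -0.19, so its sign turned in NICD1 and NICD3. ANGPTL4, a lipase inhibitor induced by hypoxia, averaged 1.29 CPM in EV and 7.18, 5.33, 4.87 and 8.44 CPM in NICD1 to NICD4, while CA12 fell. Its rises of 2.45, 2.03, 1.88 and 2.67 were 1.68, 1.64, 1.29 and 1.63 after GC adjustment. Among 5 genes of lactate export and pH, BSG, the chaperone of the lactate carriers, rose by 1.14, 0.74, 1.04 and 1.43 (0.48, 0.40, 0.52 and 0.52 after GC adjustment). In that list 2 genes rose in each group and 2, 1, 1 and 1 fell. After GC adjustment 1, 3, 1 and 4 rose and 1, 0, 0 and 1 fell.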

How the data were processed

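RNA was sequenced by the submitters from polyadenylated RNA (TruSeq, version 2 kit). The submitters' processing notes name TopHat2 2.0.6, HTSeq and GRCh37, and settings and strand handling are not given in the sources used here. Per the file headers and the values, the authors deposited log2 of the raw read count plus 1. Undoing this recovered whole reads for 100% of values (tolerance 0.001). The 40 genes, the lists and the promoter search were chosen with earlier results of these data known.

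A gene was tested if 3 or more libraries held 10 reads at the median depth (0.548 CPM) and its reads summed to 15 or more. Counts were scaled by TMM factors (30% and 5% trimmed), brought to a common size and log2 transformed after adding 1 (0.0544 CPM), which understates the change of scarce genes. limma 3.58.1 in R 4.3.3 (statmod 1.5.0, trended and robust prior) fitted 1 mean per group to all 15 libraries. p-values are two-sided. Because the deposited unit is log2, no negative-binomial test was run. The GC trend of each library was a lowess curve (span 0.3) over genes with a known transcript GC content (97.5%, GENCODE release 29). The fit was tested on simulated data in which a small part of the genes was changed, in 1 group. In a further run a GC trend was planted in that group. Such data do not test the scaling where a large part of all genes is called, as here. Shares of families used CPM per kilobase of exon, without GC adjustment. All 40 genes could be named, and from each other list the 3 with the largest change among genes called in 1 direction in all 4 groups with a mean of at least 1 CPM. Identical libraries were looked for and none found. Alternatives were median-ratio scaling, library totals, pseudocounts of 0.5 and 5, no filter, a filter at 50 reads, voom, a fit of only the 2 groups compared, the replicate number as a block, GC adjustment with and without that block, and leaving out each library.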

Additional observations from a re-analysis of the deposited data

How the results depend on the processing

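Against EV, 107 of the 122 calls held in every fit without 1 library, and 15 were lost in at least 1. GC adjustment kept 95 of the 122 and library totals 100. Without the filter 9 were lost, ALDOC, EPAS1 and VEGFA in NICD1, BNIP3L, EPAS1 and PGAM1 in NICD2, ADM and ANKRD37 in NICD3 and VEGFA in NICD4 (adjusted p 0.0529 to 0.125), each also lost without some library. Numbers of genes called up or down that moved by more than 1.5 times were as follows. With library totals, NICD1 had 8 up and 25 down, NICD3 23 down and NICD4 6 up, and NICD3 lay below NICD1 for 2. With GC adjustment, NICD3 lay below NICD1 for 3 (2 with the block as well) and NICD4 below NICD1 for 6 (6 with the block). Without a filter, NICD4 exceeded NICD1 for 3 and NICD3 lay below NICD2 for 3. With only the groups compared, NICD4 exceeded NICD1 for 3 and lay below for 1. The cause of these shifts was not tested.

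Leaving out 1 library gave 11 to 15 up and 14 to 15 down for NICD1, 14 to 17 and 11 to 14 for NICD2, 13 to 13 and 13 to 16 for NICD3, and 14 to 16 and 18 to 19 for NICD4. Between receptors the ranges were 8 to 13 up and 3 to 8 down (NICD2 against NICD1), 2 to 4 and 1 to 3 (NICD3 against NICD1), 3 to 8 and 1 to 9 (NICD4 against NICD1), 3 to 8 and 3 to 8 (NICD3 against NICD2), 9 to 11 and 12 to 17 (NICD4 against NICD2), 5 to 9 and 10 to 13 (NICD4 against NICD3), and 24 to 31 by the F-test.

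Direction turned with library totals for ALDOC (-0.25), VEGFA (-0.11) and EPAS1 (-0.012) in NICD1, PGAM1 in NICD2 (-0.10) and NICD3 (-0.16), and PKM (-0.051), PDK3 (-0.021), ENO1 (-0.041), NDRG1 (-0.12), VEGFA (-0.13) and HK1 (-0.087) in NICD4. With GC adjustment, alone or with the block, it turned for ALDOC in NICD1 (-0.19), BNIP3L in NICD2 (0.052), SLC16A3 in NICD3 (-0.067) and NICD4 (-0.44), and SLC16A1 in NICD4 against NICD2 (0.012).

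Same-numbered libraries deviated together in part (30 pairs, r from -0.429 to 0.363, 13 over 0.1, and 23 of 60 comparisons best with the own number). Each of the 60 comparisons had 3 libraries to choose from, so many such matches arise without pairing. The deviations were not GC-adjusted. Pairs numbered 1 or 2 among EV, NICD2, NICD3 and NICD4 all had positive r (0.142 to 0.363). Pairs with an NICD1 library ran from -0.429 to 0.236. Whether the libraries were paired by number is therefore not settled. With the replicate block, 121 of 122 calls against EV and 90 of 91 between receptors held, and NICD3 lay below NICD1 for 2 genes.

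CA9, EGLN3 and ANKRD37 had under 100 reads in every library.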
